A study of Mus musculus with 8 samples.

Results

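Acetylation of histone H3 at lysine 27 (H3K27ac), a chromatin mark of active promoters and enhancers, was examined at 39 genes of the hypoxia response and of glycolysis in mouse breast tumors. The genes were taken as a named list, from the sensors and mediators of low oxygen through glucose transporters and the enzymes of glycolysis to the enzymes that decide the fate of pyruvate, and all 39 were found among the 21938 protein-coding genes on 21 chromosomes of the GENCODE M21 annotation of mm10. All 4 tumors arose in Balb/c mice that carried the PyMT oncogene and lacked Rag1, and therefore had no T or B cells of their own, and all of these mice had received an injection of CD4+ T cells when 4 weeks old. The 2 control tumors came from PyMT;Rag1KO mice. The 2 test tumors came from K14-TSLPtg;PyMT;Rag1KO mice, in which the keratin 14 promoter drives the cytokine thymic stromal lymphopoietin in skin and other stratified epithelium, and their sample titles call them cysts. The comparison asked how the chromatin of tumors exposed to TSLP and CD4+ T cells differed from that of tumors exposed to CD4+ T cells without the transgene.

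The available data were peak lists, the genome intervals called as enriched for H3K27ac in each tumor, with no height or score. For each gene, 2 readings were taken. Runs of 4 values are given in the order control 1, control 2, test 1 and test 2. A promoter was called peaked in a tumor when at least 1 bp of an interval lay within 1 kb of the 5′ end of the gene, and window coverage was the percentage of bases within 10 kb either side of that end that lay inside intervals. With 2 tumors per group, the smallest 2-sided p an exact permutation test can give is 0.333, so every difference below is a description with no test. A difference is given as the test mean minus the control mean in percentage points, with the SD over the 4 ways of pairing a test and a control tumor. Where both tumors of a group lay above both of the other, the share of all covered genes in that order is printed beside the count. The lists held 69861 and 67850 intervals in control 1 and 2 and 65763 and 59762 in test 1 and 2. Over all genes, mean window coverage was 8.85%, 8.89%, 9.49% and 8.30% in the same order, so test 2 was the sparsest list. Sequencing depth is unknown. A piece of each tumor, not sorted into cell types, was minced before chromatin was made, and the share of each cell type and the state of its chromatin cannot be told apart in such samples.

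When oxygen is low, prolyl hydroxylases of the Egln family no longer mark HIF alpha subunits for destruction by the von Hippel-Lindau protein. The alpha subunits then pair with Arnt at a short DNA core, the hypoxia response element, and activate genes for glucose uptake, glycolysis, angiogenesis and mitochondrial removal. Rapidly growing tumors are well known for high glucose uptake and lactate release even where oxygen is present.

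Promoter sequences are shown for 6 members as examples. Their acetylation varied from tumor to tumor or separated the groups, as it also did at members not shown. The Ldha run lies upstream of a RefSeq start 4329 bp downstream of the 5′ end used for its coverage, and the Slc16a3 run upstream of one 587 bp downstream. Each run is the 250 bases upstream of a RefSeq start on mm10, read 5′ to 3′ on the coding strand, with every match to the core ACGTG or GCGTG on either strand in capitals.
Bnip3, chr7:138909507-138909756, minus strand: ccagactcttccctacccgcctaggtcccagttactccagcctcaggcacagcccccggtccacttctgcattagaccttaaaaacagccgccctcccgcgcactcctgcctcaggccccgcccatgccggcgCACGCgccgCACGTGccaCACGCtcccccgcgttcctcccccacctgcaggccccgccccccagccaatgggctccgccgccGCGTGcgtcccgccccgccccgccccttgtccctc
Slc16a3, chr11:120948817-120949066, plus strand: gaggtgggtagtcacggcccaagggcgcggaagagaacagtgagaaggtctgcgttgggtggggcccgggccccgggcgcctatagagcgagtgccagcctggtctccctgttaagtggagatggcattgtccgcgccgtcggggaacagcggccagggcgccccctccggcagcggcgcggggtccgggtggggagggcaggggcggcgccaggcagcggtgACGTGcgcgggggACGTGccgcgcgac
Ldha, chr7:46845554-46845803, plus strand: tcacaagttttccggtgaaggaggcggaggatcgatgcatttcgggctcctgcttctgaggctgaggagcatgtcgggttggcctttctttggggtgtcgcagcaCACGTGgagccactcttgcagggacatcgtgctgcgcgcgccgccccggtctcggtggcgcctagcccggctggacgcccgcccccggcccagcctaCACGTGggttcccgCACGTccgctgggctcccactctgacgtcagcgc
Slc2a1, chr4:119108495-119108744, plus strand: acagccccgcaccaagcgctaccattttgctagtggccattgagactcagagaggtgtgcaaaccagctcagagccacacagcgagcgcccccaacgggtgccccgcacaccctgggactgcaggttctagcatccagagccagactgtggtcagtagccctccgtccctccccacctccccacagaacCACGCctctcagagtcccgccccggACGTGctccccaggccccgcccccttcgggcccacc
Pgam1, chr19:41911621-41911870, plus strand: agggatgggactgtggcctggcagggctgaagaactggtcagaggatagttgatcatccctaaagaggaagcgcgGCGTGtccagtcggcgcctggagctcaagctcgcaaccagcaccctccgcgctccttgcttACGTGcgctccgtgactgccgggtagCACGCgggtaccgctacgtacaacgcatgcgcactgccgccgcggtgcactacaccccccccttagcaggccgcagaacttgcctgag
Eno2, chr6:124769674-124769923, minus strand: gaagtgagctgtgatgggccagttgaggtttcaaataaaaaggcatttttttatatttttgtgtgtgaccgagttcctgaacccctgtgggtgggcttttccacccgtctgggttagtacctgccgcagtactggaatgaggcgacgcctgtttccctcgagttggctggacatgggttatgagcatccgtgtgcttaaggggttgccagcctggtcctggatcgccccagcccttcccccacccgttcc
Matches that overlapped, on the same or opposite strands, were counted as 1 here and below. The Bnip3 promoter held 4 matches within 117 bases of its start. Ldha and Pgam1 held 3 each, Slc16a3 and Slc2a1 held 2 each, and Eno2 held 0. In Ldha, 2 of the matches, and in Bnip3 1, lay in the palindrome CACGTG, the E-box, to which Myc and other basic helix-loop-helix factors also bind.

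The RefSeq table gave 50 promoters for 35 of the 39 genes, with none for Epas1, Bnip3l, Ndrg1 and Slc2a3. A core was present in 40 of the 50 (80.0%), against 9061 of all 20148 promoters in the table (45.0%). Among promoters with a peak within 1 kb in all 4 tumors, the shares were 37 of 44 (84.1%) for the members and 58.8% for all genes. At least 2 cores stood in 22 of the 50 (44.0%), against 17.3% of all promoters. By role, the share was 8 of 9 promoters of hypoxia targets, 6 of 7 of the sensing genes, 14 of 19 of the upper glycolytic enzymes, 6 of 8 of the lower ones and 4 of 5 of the pyruvate enzymes. The E-box CACGTG was found in 10.0% of member promoters and 6.78% of all, and the GC box GGGCGG, on either strand, in 56.0% and 44.1%. Among promoters peaked in all 4 tumors the GC box was the less frequent in the members, at 56.8% against 61.5%. Median GC content was 60.0% in member promoters and 56.0% in all, and 60.4% and 60.8% among those peaked in all 4 tumors, and its part in these shares was not tested. A match is a run of letters and not a bound site.

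The promoters of this pathway were acetylated in both groups. A peak lay at the promoter in all 4 tumors for 32 of the 39 genes (82.1%), where 49.6% of all protein-coding genes had one. Median coverage of the 38 members with any peak in their window was 20%, against 9.64% over all covered genes, and 31 of the 38 lay above that second value. Among them, 12 lay in the top 10% of covered genes. Peaks at these promoters were wide: over the 32 genes, the median width of the promoter interval, the widest one reaching within 1 kb of the start, was 2394 bp and 3185 bp in control 1 and 2 and 2860 bp and 2894 bp in test 1 and 2, against medians between 1472 bp and 1689 bp for all genes peaked in the 4 tumors. At 2050 bp downstream of the start, between 50% and 59.4% of the 32 genes had a peak, depending on the tumor, against 16.5% to 19.7% of all such genes, while at 1950 bp upstream the shares were 18.8% to 25.0% and 9.33% to 11.0%.

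**Figure D1:**
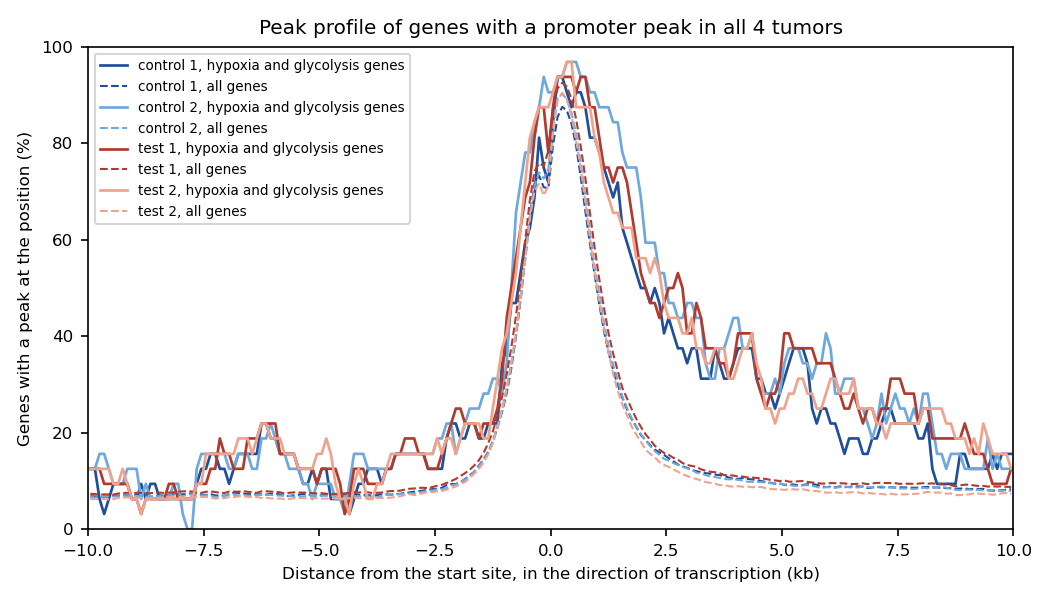
Percentage of genes with an H3K27ac peak at each 100 bp step (y axis) by distance from the start site in kb (x axis), for genes with a promoter peak in all 4 tumors. Solid lines are the 32 hypoxia and glycolysis genes and dashed lines all 10874 such genes, with 1 color per tumor, and the solid lines stay above the dashed ones downstream of the start in every tumor.

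**Figure D2:**
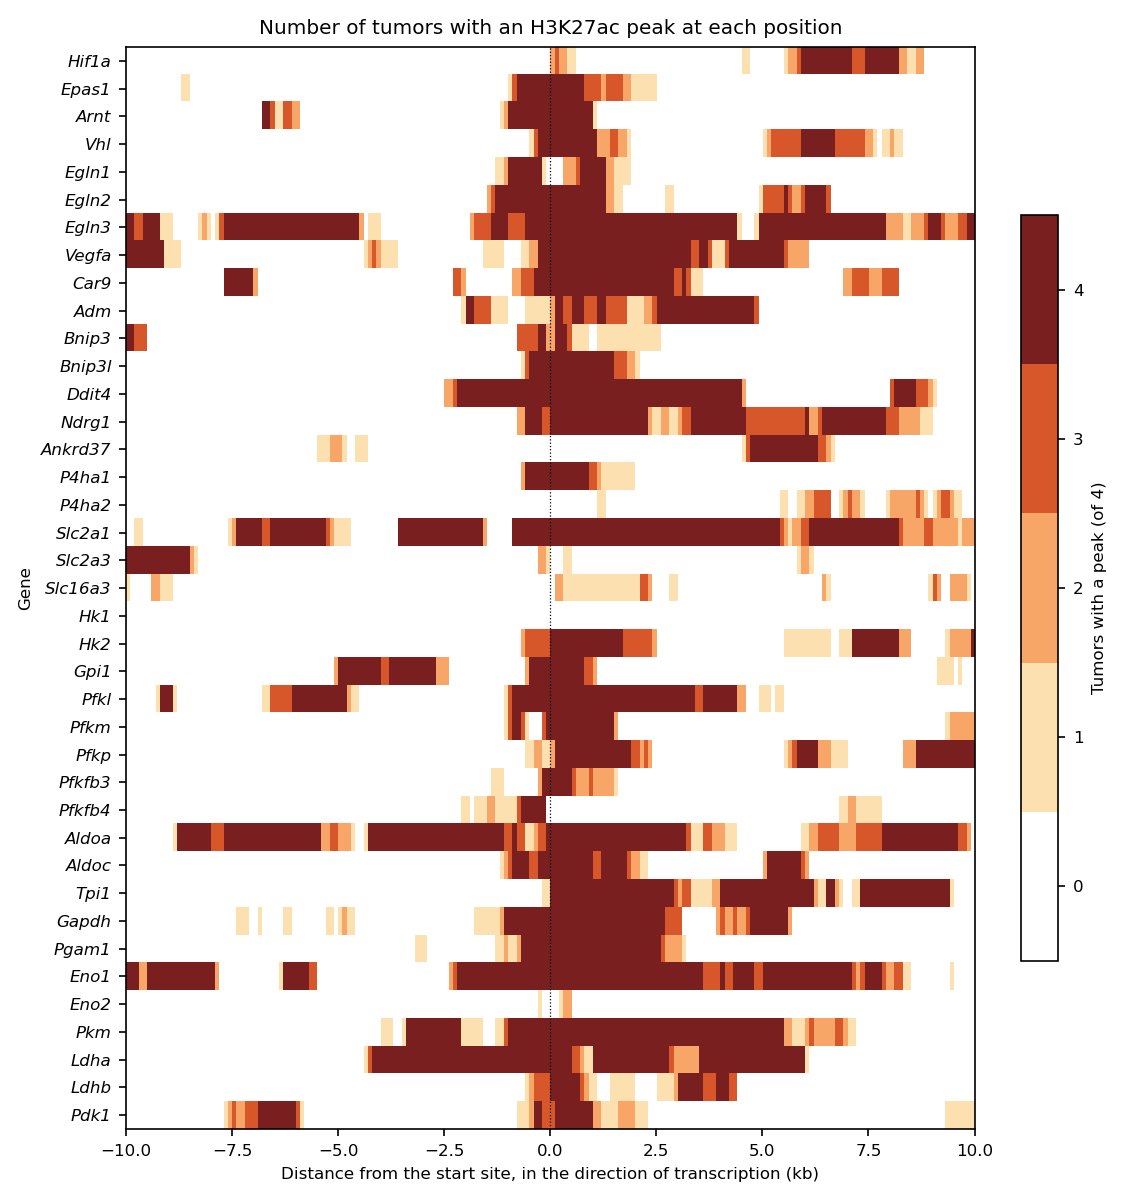
Number of tumors, from 0 (white) to 4 (dark red), with a peak at each 100 bp step within 10 kb of the start site of the 39 genes, which are ordered by role. Most dark blocks begin at the start site and run into the gene, and Hk1 is white throughout because its annotated 5′ end lies far from the start with a peak.

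The oxygen-sensing genes had the same promoters acetylated in every tumor with a single partial case. Egln3, the prolyl hydroxylase that HIF itself induces, had the highest mean coverage over the 4 tumors of all 39 genes, at 72.3% and 81.8% in control 1 and 2 and 67.1% and 75.4% in test 1 and 2, and its mean stood at percentile 99.8 of covered genes. Its groups overlapped, and in both test tumors Aldoa and Slc2a1 were covered further than Egln3. The paralogs were covered far less: Egln1, the main oxygen sensor in most tissues, had 7.17%, 12.7%, 8.40% and 11.9%, and Egln2 had 21.2%, 22.2%, 25.7% and 17.6%. In both, the 2 groups also overlapped.

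Hif1a, which encodes the broadly expressed alpha subunit, had 10.4% and 14.8% in the control pair and 14.5% and 20.7% in the test tumors. The difference was 5.00 ± 4.38 points, and control 2 lay above test 1. At the annotated 5′ end the promoter peak covered 0 bp, 161 bp, 413 bp and 579 bp, and so was absent from control 1. The RefSeq start of Hif1a lies 6492 bp further downstream, and there the peak covered between 1390 bp and 1969 bp in all 4 tumors. Epas1, the alpha subunit known from endothelium and other specialized cells, had 12.1%, 16.7%, 14.3% and 9.87%, with test 2 the lowest. Arnt, the shared partner, had 12.6%, 13.0%, 15.2% and 12.3%, a spread of under 3 points over the 4 tumors. Vhl, the ubiquitin ligase subunit that removes the alpha subunits, had 21%, 23.5% and 25.7% in control 1, control 2 and test 1 and 11.1% in test 2. None of the 7 genes had groups that did not overlap. Of all covered genes, 11.6% were higher in both control tumors and 20.9% in both test tumors. Control 2 lay above control 1 in all 7, against 52.7% of all covered genes.

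Of the 10 classical hypoxia targets, 8 had a promoter peak in all 4 tumors. In 6 of the 10 the highest coverage was that of control 2, against 34.2% of the covered members and 21.6% of all covered genes. Vegfa, the main angiogenic growth factor, had 30.3%, 46.3%, 36.4% and 33.6%, with control 2 the highest. The gap between the control tumors was thus wider than the group difference, which was -3.29 ± 9.40 points. Adm, the vasodilator peptide adrenomedullin, was likewise lowest in control 1 and highest in control 2, with 18.0% and 32.6% in control 1 and 2 and 23.7% and 24.9% in test 1 and 2. Its widest promoter interval was 806 bp, 5469 bp, 779 bp and 1782 bp.

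Bnip3, a mitochondrial protein that triggers mitophagy, had the same profile at a lower level. Its coverage was 3.66% and 18.1% in control 1 and 2 and 7.69% and 8.76% in test 1 and 2. Its widest promoter interval measured 368 bp, 1635 bp, 664 bp and 1291 bp. In control 2 and test 2 it spanned the start, and in control 1 and test 1 a gap between shorter intervals lay there, where the 4 cores printed above are. A further interval of 1484 bp inside intron sequence, chr7:138906893-138908376, was called in control 2 alone. Bnip3l, its mitophagy paralog, varied less, with 9.93%, 13.4%, 12.1% and 14.1%.

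Car9, the membrane carbonic anhydrase used as a hypoxia marker, had 30.2%, 30.0%, 30.0% and 25.3%. Ddit4, an inhibitor of mTORC1, varied by little more than 2 points, with 37.3%, 39.8%, 39% and 39.7%. Ndrg1, a stress-responsive gene, had 36.3% and 41.5% in the control pair and 47.3% and 36.4% in the test tumors, which places test 1 highest. Ankrd37 had no peak at its annotated 5′ end, but at its RefSeq start, 5857 bp downstream, the peak covered 1488 bp to 1819 bp in every tumor. Its window coverage was 8.75%, 15.0%, 9.05% and 12.4%.

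The collagen prolyl hydroxylase subunits P4ha1 and P4ha2 were the only 2 of the 10 hypoxia targets with groups that did not overlap, both lower in the test tumors. That order was found in 11.6% of all covered genes, and the opposite order in 20.9%. P4ha1 had 9.46% and 13.0% in the control and 9.20% and 7.66% in the test pair, a difference of -2.79 ± 2.23 points that was -1.02 without control 2. Its test 1 value lay only just under that of control 1. P4ha2 had 12.1% and 10.3% in the control pair, 9.38% in test 1 and 0% in test 2, a difference of -6.50 ± 5.52 points that shrank to -1.81 when test 2 was left out. Most intervals of P4ha2 were not at the 5′ end but formed a group of 4 regions inside the gene, from chr11:54105928 to 54109751. Of these, 2 lay over exons and 2 in introns, and all 4 were missing in test 2. A further annotated coding start, 7225 bp downstream, lay among them, and peaks within 1 kb of it covered 805 bp, 998 bp, 827 bp and 0 bp. With intervals under 1 kb removed, with near intervals joined, or with the window reduced to 5 kb, the P4ha2 groups no longer separated.

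The glucose transporter Slc2a1 (GLUT1), the main route of glucose into most tumor cells, separated the groups. Coverage was 67.7% and 66.3% in control 1 and 2 and 74.4% and 76.3% in test 1 and 2, a difference of 8.31 ± 1.38 points, and both test tumors lay above both control tumors. The promoter interval measured 6504 bp, 6309 bp, 14163 bp and 6401 bp, so in test 1 it ran unbroken from the promoter across the gene's 5′ part while the other tumors had gaps. The difference fell to 4.24 points, and the groups overlapped, when intervals within 1 kb of each other were joined, and it was 2.29 points in a window of 5 kb. Thus, part of it lay in gaps between intervals and in the outer part of the window.

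Slc2a3 (GLUT3), the high-affinity transporter of neurons and leukocytes, had much lower coverage, at 7.34%, 10.4%, 12.5% and 7.52%, and a promoter peak only in control 2 and test 1. Slc16a3 (MCT4), which exports lactate and is known as a HIF target, had 4.11% and 14% in the control and 2.72% and 8.17% in the test tumors. At its 5′ end the peak covered 912 bp in control 2, 170 bp in test 1 and 0 bp in control 1 and test 2. At a further annotated start 2208 bp downstream the peaks covered 274 bp, 1446 bp, 0 bp and 313 bp in control 1, control 2, test 1 and test 2. For both genes, therefore, the tumors with a promoter peak came from both groups.

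In the upper part of glycolysis, which spends ATP to prepare and split the sugar, 10 of 11 genes had a promoter peak in all 4 tumors. The exception was Hk1, the housekeeping hexokinase, which had 0% coverage in every tumor at its annotated 5′ end. At the start 39366 bp downstream, on chr10 at 62340542, coverage was 41.1%, 40.4%, 44.0% and 43.1%, and at the start 61515 bp downstream it was 79.9%, 77.0%, 72.9% and 83.0%. Hk1 was thus acetylated in all 4 tumors, at internal starts. Hk2, the inducible hexokinase of many tumors, had 23.1% and 23.7% in the control pair, which lay between 14.6% in test 1 and 34.2% in test 2. The 2 test tumors were further apart than any control and test tumor. Gpi1, which converts glucose 6-phosphate to fructose 6-phosphate, had 17.9%, 22.7%, 19.3% and 23.3%.

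The 3 phosphofructokinase genes, which catalyze the committed step, were not in the same order. Pfkl, the liver-type subunit, had 37.3% and 34.0% in the control and 40.9% and 41.6% in the test pair, a difference of 5.58 ± 1.97 points. Pfkp, the platelet-type subunit, had 19.7% and 22.4% in the control and 23.6% and 31.1% in the test pair, a difference of 6.25 ± 4.60 points that was 2.50 without test 2 and 10.0 without test 1. Both test tumors lay above both control tumors in each gene, but for Pfkp the groups overlapped in a window of 5 kb, with all coding starts used, and after scaling by mean coverage. Pfkm, the muscle-type subunit, had 13.7%, 12.5%, 12.3% and 10.1%, a difference of -1.91 ± 1.47 points, with test 1 barely under control 2. Its direction turned, to 0.292 points with intervals under 1 kb removed and to 0.115 points in a window of 5 kb.

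Pfkfb3, which makes fructose 2,6-bisphosphate, the activator of phosphofructokinase, had 11.4% and 7.33% in the control and 6.63% and 3.30% in the test tumors. The difference was -4.41 ± 3.04 points, and -2.37 without control 1. The separation was lost with intervals under 1 kb removed, where the difference was -1.48 points, and was wider around all RefSeq starts, at -10.5 points. A second start of Pfkfb3, 52377 bp downstream on chr2 at 11501700, had 46.7% and 42.6% in the control pair, 37.4% in test 1 and 16.7% in test 2. The paralog Pfkfb4 had 6.23%, 4.78%, 12.6% and 3.15%, with the 2 test tumors at either extreme.

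Aldoa, the aldolase of muscle and most tumors, had the largest difference of all members in the 10 kb windows as defined, though not with near intervals joined, in a window of 5 kb, with every coding start, or with control 1 or test 1 left out. Its coverage was 62.7% and 71.7% in the control and 81.5% and 76.0% in the test tumors, and the difference was 11.5 ± 6.04 points. Both test tumors lay above both control tumors under all 7 alternative settings in which order was compared. The size changed with the handling of gaps, from 5.29 points with near intervals joined to 18.7 points with intervals under 1 kb removed, and it was 7.05 points without control 1. The Aldoa window also holds the starts of Ppp4c and Fam57b, and coverage cannot be assigned among them. Aldoc, the brain-type aldolase, had 19.2%, 19.6%, 23.0% and 16.5%, with overlapping groups. Tpi1, which interconverts the products of aldolase, lay in the opposite order, with 42.5% and 44.4% in the control and 38.7% and 38.8% in the test tumors. The difference was -4.65 ± 1.06 points. It shrank to -0.650 points, and the groups overlapped, when intervals within 1 kb were joined, and Spsb2 shares the window.

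The lower part of glycolysis, which yields ATP, had the highest mean coverage of the 6 roles, at 30.2%, 32.8%, 32.3% and 33.3%. Gapdh had 29.6%, 30.4%, 29.8% and 31.7%, which differed by little more than 2 points over the 4 tumors. Pgam1, phosphoglycerate mutase, had 16.7% and 18.8% in the control and 20.8% and 21.3% in the test pair, a difference of 3.29 ± 1.24 points in the same order under all 7 settings. In a window of 5 kb, which still held all intervals of Pgam1, the difference was larger. The promoter interval of Pgam1 measured 3348 bp, 3476 bp, 3946 bp and 4262 bp, in the same order as the coverage. Eno1, the enolase of most tissues, had 63.0%, 66.2%, 63.5% and 68.9% with overlapping groups, and its mean stood at percentile 99.5. Pkm, pyruvate kinase, had 40.8%, 46.5%, 47.1% and 44.5%.

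Eno2, the neuronal enolase, was the one member whose promoter was peaked in the control pair alone, where 0.533% of all genes showed this pattern. Its coverage was 0.775% and 2.29% in the control and 0% in both test tumors, a difference of -1.53 ± 0.878 points that was -0.775 without control 2. At percentile 5.56 it was the lowest of the 38 covered members. The joined region of the control tumors was 296 bp long, chr6:124769141-124769436, just downstream of the start and overlapping an exon of Eno2. It was the interval of control 2, and the control 1 interval inside it was 155 bp. Control 2 had a further short region upstream, chr6:124769841-124770003. With intervals under 1 kb removed, none of these was left. With the same number of peaks kept in every tumor, the promoter was no longer peaked in both control tumors, and the difference was -0.740 points. No member had a promoter peak in both test tumors alone, a pattern of 0.301% of all genes.

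Among the enzymes at the pyruvate branch, Ldha, which makes lactate and is a known HIF and Myc target, had 46.7%, 51.8%, 50.8% and 45.0%, and the lowest and highest tumors came from either group. Its promoter interval was 10354 bp in control 2 and 4784 bp to 5093 bp in the other 3 tumors. Ldhb, the isozyme that favors pyruvate, had 8.52% and 13.2% in the control and 20.3% and 14.2% in the test tumors. The difference was 6.40 ± 4.44 points. It was 3.36 without test 1 and 4.05 without control 1, and the order held under all 7 settings. In a window of 5 kb, which still held all intervals of Ldhb, the difference was larger. The widest promoter interval of Ldhb measured 717 bp, 1196 bp, 1629 bp and 1370 bp in control 1, control 2, test 1 and test 2. Pdk1, the kinase that inhibits pyruvate dehydrogenase and so keeps pyruvate from becoming acetyl-CoA, had 11.8%, 22.1%, 13.3% and 23.6%, so that a tumor of each group was high and a tumor of each group was low.

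**Figure D3:**
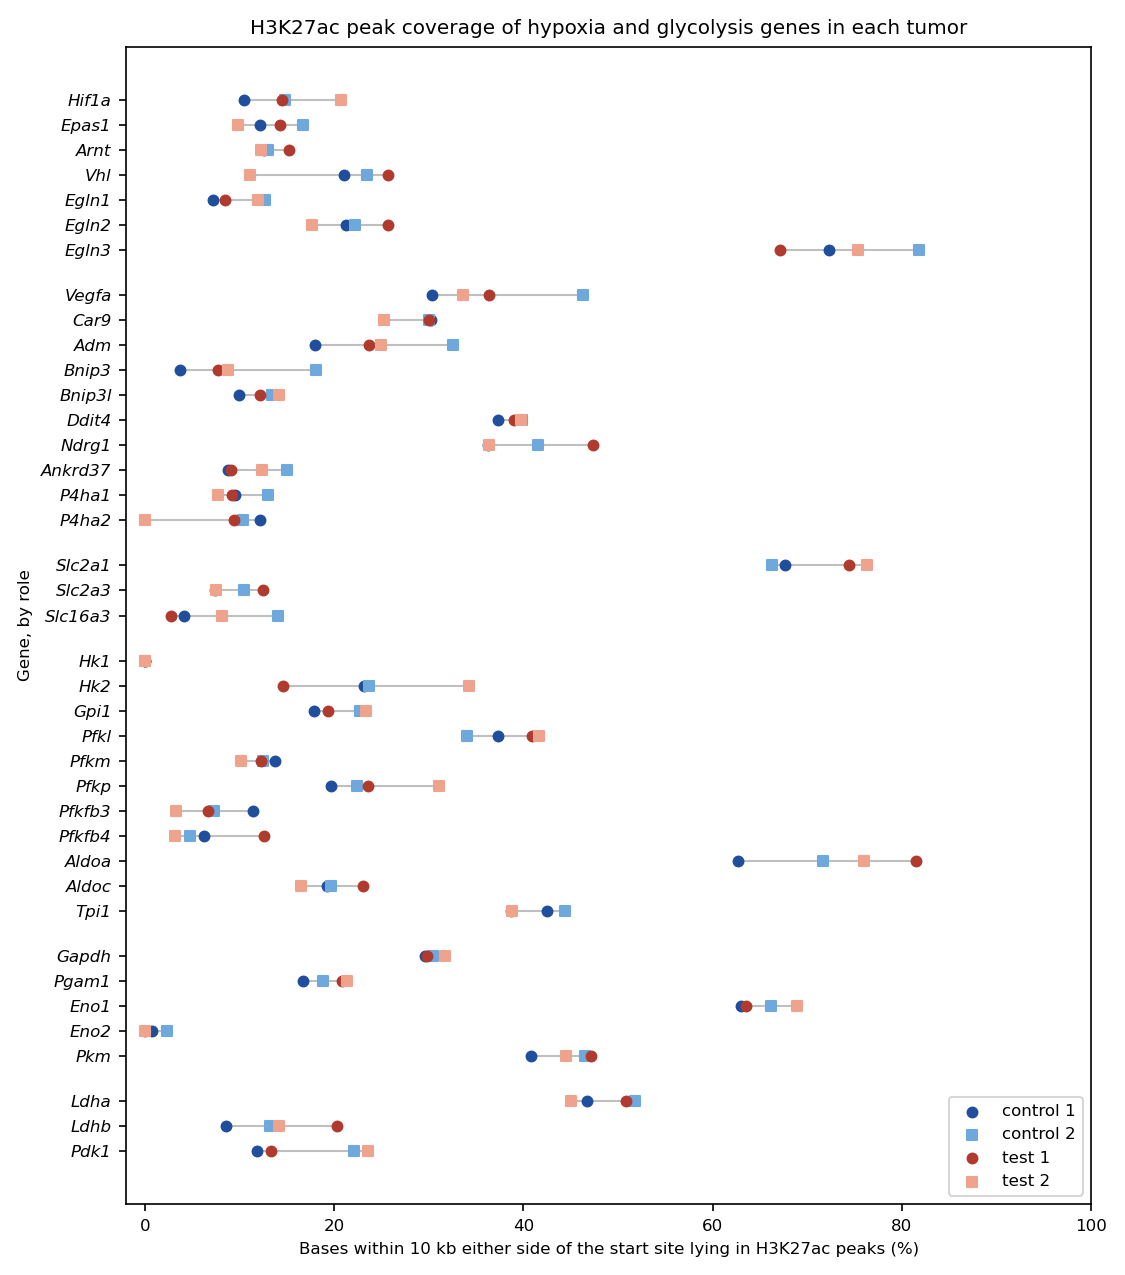
Window coverage in percent (x axis) for the 39 genes by role (y axis), with 1 point per tumor, circles for control 1 and test 1 and squares for control 2 and test 2, and a gray line over the range. Slc2a1 and Pfkl have both red points to the right of both blue ones, Tpi1 has them to the left, and in Vegfa, Adm and Bnip3 control 2 stands apart at the right.

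**Figure D4:**
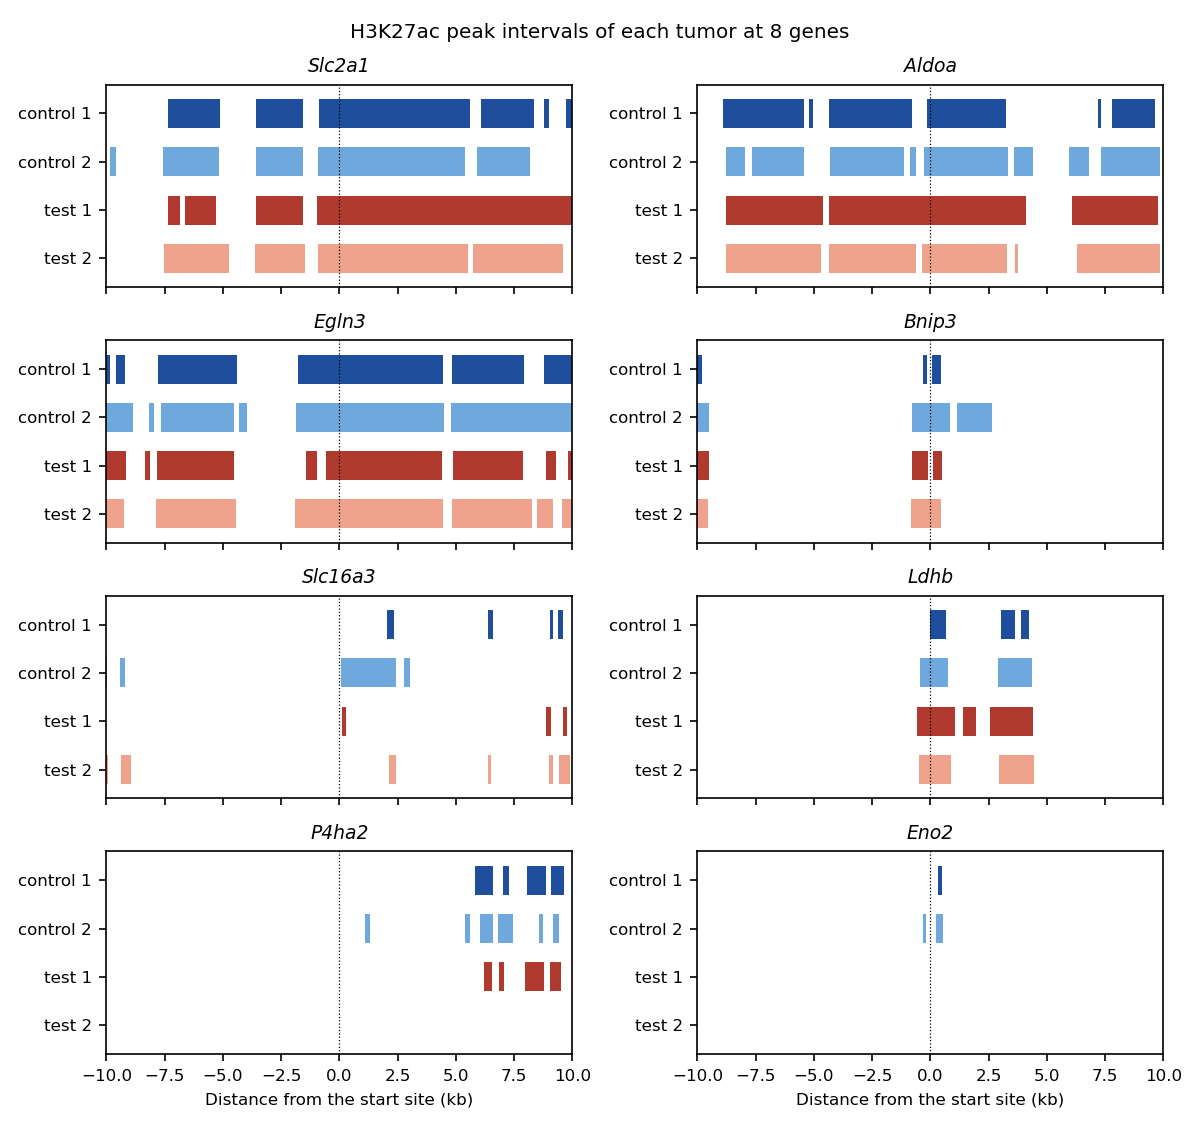
Peak intervals (bars) of the 4 tumors by distance from the start site in kb at 8 genes. Slc2a1 and Aldoa differ in the gaps between wide intervals, Bnip3 has an unbroken interval over its start in control 2 and test 2, Slc16a3 has its widest interval in control 2, P4ha2 has no interval in test 2, and the Eno2 intervals are short and confined to the control tumors.

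Over the pathway, 6 members were higher in both control tumors (P4ha1, P4ha2, Pfkm, Pfkfb3, Tpi1 and Eno2) and 6 in both test tumors (Slc2a1, Pfkl, Pfkp, Aldoa, Pgam1 and Ldhb). Of all covered genes, 11.6% had the first order and 20.9% the second. For 38 covered members, 6 is 15.8% in either direction. The median difference of the members was 0.551 points, against 0.277 points over all covered genes, and the central 90% of all genes ran from -5.30 to 4.35 points. The test mean was higher in 22 members and the control mean in 16. Over all 14792 covered genes the numbers were 8470 and 6311, so the direction of the means is not read as a trait of the members. In 21 of the 38, the 2 control tumors differed from each other by more than the groups did, and the difference exceeded its SD over the pairings in 13. The last 2 counts have no share over all genes beside them and are not read as a trait of the members.

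**Figure D5:**
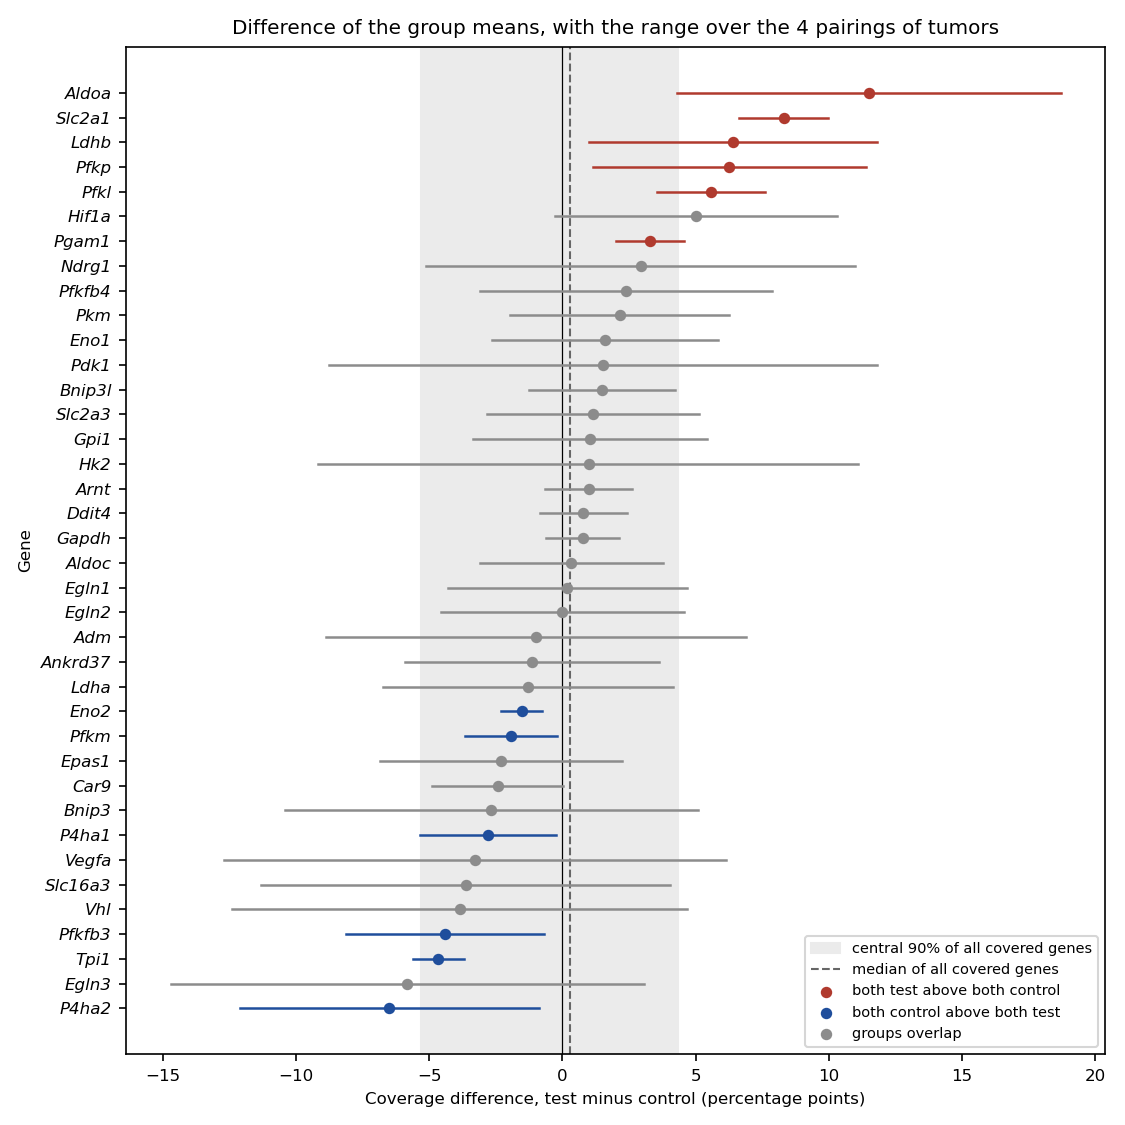
Difference in window coverage, test minus control in percentage points (x axis), for the 38 covered genes (y axis), as the difference of the group means (points) with the range over the 4 pairings of tumors (lines). Red and blue mark groups that do not overlap, gray marks groups that do, and the shaded band holds the central 90% of all covered genes, with Aldoa at 11.5 and P4ha2 at -6.50 at the ends.

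The 2 control tumors were not alike at these genes. Control 2 was above control 1 in 31 of the 38 members (81.6%), whereas over all covered genes it was above in 52.7%. Mean coverage over the members was 23.2%, 26.9%, 25.7% and 25.2%, and over the 10 hypoxia targets it was 19.6%, 26.0%, 22.4% and 20.3%. In the upper glycolytic genes, the same means were 23.1%, 23.9%, 24.8% and 25.3%, so the control tumors were closest there. Between the test tumors, test 2 was above test 1 in 19 members (50%), against 31.3% of all covered genes. Both shares were thus higher at the members than over all covered genes, while the order of the mean coverages within each pair was the same as over all genes.

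Regions were also compared one by one after the intervals of the 4 tumors had been joined where they overlapped. Of 121 regions in the member windows, 69 (57.0%) were present in all 4 tumors, where 38.1% of all 91238 regions were. The region at Eno2 was the only 1 of 121 (0.826%) confined to the control pair, a class that made up 3.41% of all regions. None of the 121 was found in both test tumors alone, against 1.47% of all regions. Of the 69 shared regions, 42 overlapped an exon, 7 lay in introns and 20 were intergenic. When RefSeq starts were used in place of the annotated 5′ ends, 32 of the 35 genes with such a start had a peak in all 4 tumors, against 53.5% of 16538 genes, and the other 3 were P4ha2, Slc16a3 and Eno2.

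In addition, 54 genes of the same pathways were taken as a list. A promoter peak was present in all 4 tumors in 34 of them, where 49.6% of all genes had one. Of the 47 that were covered, 4 were higher in both control tumors and 9 in both test tumors, where 11.6% and 20.9% of all covered genes had these orders. Car12, a membrane carbonic anhydrase, had 48.2% and 47.5% in the control and 49.4% and 57.4% in the test tumors. Siah2, a ubiquitin ligase that acts on the Egln proteins, had 18.6%, 14.8%, 18.9% and 24.5%, and Pdk3, a pyruvate dehydrogenase kinase, had 5.30%, 5.02%, 6.97% and 9.61%. Both genes were thus highest in test 2. Fbp2, a gluconeogenic phosphatase, had 30.7%, 29.1%, 28.6% and 11.2%, and the lactate carrier Slc16a7 had 6.97%, 6.95%, 5.95% and 3.11%. Pdk4 was the only 1 of the 54 with a promoter peak in the control tumors alone, at 1.05% and 0.975% against 0% in both test tumors. In this wider list control 2 lay above control 1 in 21 of 47, against 31 of 38 of the members.

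The marker lists of other cell types differed between the same tumors. Mean coverage at 14 luminal epithelial markers, the epithelial class in which PyMT tumors arise, was 42.1%, 40.6%, 43.2% and 40.1%, with 13 peaked at the promoter in all 4 tumors. At 15 myeloid markers it was 20.9%, 17.3%, 16.3% and 10.6%, at 12 endothelial markers 4.21%, 3.31%, 1.35% and 0.680%, and at 12 fibroblast markers 4.37%, 2.89%, 2.61% and 0.757%. These lists, like the luminal list and all genes together, were lowest in test 2, the tumor with no P4ha2 intervals. Markers of neurons had 0% in every tumor, and those of hepatocytes 0.614% to 0.867%. At 11 T cell markers the means were 5.58%, 5.92%, 5.40% and 3.97%, carried by Gata3, which luminal epithelium also uses, at 50%, 50.4%, 50.7% and 40.3%, while the other 10 lay between 0% and 6.20% in every tumor. At the adipocyte markers the means were 12.6%, 13.6%, 16.2% and 10.8%. These means were carried mostly by the widely expressed lipase Pnpla2, at 68%, 68%, 75.7% and 62.3%. Lipe, Cfd, Plin1 and Cidec were also covered in every tumor, at values from 2.31% (Cfd in test 2) to 30.6% (Lipe in test 1). Adipoq, Fabp4, Pparg and Lep were at 0% throughout. The myoepithelial list, at 5.62%, 2.12%, 5.99% and 1.75%, was low in control 2 and test 2 and so did not follow the groups. The part of these cells in the differences at P4ha2, Pfkfb3, Slc2a3 and the other members was not tested. Neither Rag1 nor Tslp had a peak at its promoter in any tumor, and an interval list of the mouse genome does not test a deletion or a transgene placed elsewhere.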

How the data were processed

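H3K27ac ChIP-seq was performed on 4 primary breast tumors, and 4 input libraries are listed that are not analysed here. The authors aligned reads with BWA to mm10 (GRCm38), called peaks with MACS2 per tumor against the matched input, and deposited peak coordinates whose unit is none of counts, coverage or signal: each line holds a chromosome, start, end and the joined names of the caller's peaks. What cleaning step preceded the merge is not given in the sources used here. The smallest gap between intervals was 201 bp.

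Groups followed the genotype in the labels, and tumors were numbered in accession order, a name only. The label numbers differ between tumors and were taken as separate mice. The 5′ end of each GENCODE M21 protein-coding gene was the start site. Promoter peaks (within 1 kb, at least 1 bp), window coverage (10 kb either side), joined regions (overlapping or touching) and motif matches were computed with Python 3.11.15 and numpy 2.4.6. Overlap code was tested on simulated intervals. A gene was covered if any tumor had a peak in its window. For Aldoa, which has 2 gene models, the one with more coding starts was used. Promoter sequences came from RefSeq (GRCm38).

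The members and gene lists were chosen with earlier results of these data known. Named with values in every tumor were members whose promoters differed among tumors, whose groups did not overlap, with the highest or lowest coverage, or with group-specific regions, and isozyme sets; values of the remaining members are given as well. Alternatives removed intervals under 1 kb, kept the same number of intervals in every tumor, joined intervals within 1 kb, used every coding start, required 200 bp of peak, used a window of 5 kb, scaled by mean coverage, left out each tumor, and, chosen after seeing the data, used RefSeq starts.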

Additional observations from a re-analysis of the deposited data

How the results depend on the processing

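The number of members with a promoter peak in all 4 tumors, 32, stayed between 25 and 36 under the other settings and between 32 and 33 when any tumor was left out. The 1 control-only promoter became 0 with intervals under 1 kb removed, with the same number of peaks in every tumor and with 200 bp of peak required, and it was 1 whichever tumor was left out. The 0 test-only promoters became 1 with the same number of peaks and with 200 bp required, and ranged from 0 to 1 when a tumor was left out. Members higher in both control tumors went from 6 to 2 with intervals under 1 kb removed, where the share over all covered genes went from 11.6% to 9.54%. With 1 tumor left out they numbered 7 to 16 (16 without control 1, 14 without test 1), and those higher in the test tumors 6 to 21 (21 without control 2, 13 without test 1, 14 without test 2). The shares over all covered genes rose as well, from 11.6% to 27% without control 1 and 38.9% without test 1 for the control-higher order, and from 20.9% to 36.8% without control 2, 32.6% without test 1 and 49.4% without test 2 for the test-higher order. The 1 control-only region became 0 with intervals under 1 kb removed and 2 with every coding start or RefSeq starts, and ranged from 1 to 12. The 0 test-only regions became 2 with the same number of peaks and 1 with every coding start or 200 bp required, and ranged from 2 to 7. The median difference, 0.551 points, was 0.225 to 0.605 under the other settings and -0.975 to 2.0 with 1 tumor left out, so its sign rests on single tumors. Pfkm turned to 0.292 points with intervals under 1 kb removed and 0.115 in the 5 kb window. The order of the groups held in all 7 settings for P4ha1, Pfkl, Aldoa, Pgam1 and Ldhb, in 6 for Slc2a1, Pfkfb3 and Tpi1, in 5 for Eno2, in 4 for P4ha2 and Pfkp, and in 3 for Pfkm. The causes were not tested. No paired analysis was possible because the labels give no replicate numbers. Without heights or depth, a missing interval cannot be told from one just under the caller's threshold.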

Other observations

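Regions called in a single tumor made up 28 of the 121 regions in the member windows (23.1%), against 36.2% of all regions. Control 2 held 11 of the 28, test 1 and test 2 held 7 each, and control 1 held 3. No such split over all regions is given beside it, so it is not read as a trait of these genes. In these regions 12 lay in introns, 8 overlapped exons and 8 were intergenic, while most regions shared by the 4 tumors overlapped an exon.

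A gene of the wider pathway list, picked out here after its values were seen, was without any interval in test 2 alone. This was Angptl4, a secreted lipase inhibitor induced by hypoxia, which had 22.5%, 18.5% and 20.7% in control 1, control 2 and test 1 and 0% in test 2. Test 2 also had the lowest mean coverage over all genes, at 8.30%, and at the luminal, myoepithelial, myeloid, endothelial, fibroblast, T cell and adipocyte marker lists, and the part of these in its values was not tested.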
